A study of Mus musculus with 42 samples.

Results

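The 7 receptor genes of the common gamma chain cytokines (Il21r, Il2ra, Il2rb, Il2rg, Il7r, Il15ra and Il4ra) were followed through the uterine tissue-resident NK (trNK) cells of wild-type C57BL/6 mice. They were chosen by name, and all 7 of 7 were found among the 54353 genes that the bulk files share and among the 35237 genes of the single-cell matrix. The common gamma chain, encoded by Il2rg, is the signalling subunit that the receptors for IL-2, IL-4, IL-7, IL-9, IL-15 and IL-21 have in common. It pairs with a private chain for each cytokine (IL-21R for IL-21, IL-7Rα for IL-7, IL-4Rα for IL-4), while the receptors for IL-2 and IL-15 also share IL-2Rβ and differ in their α chains, CD25 (Il2ra) and IL-15Rα. The bound receptors signal through the kinases JAK1 and JAK3 and through STAT proteins, STAT3 for IL-21, STAT5 for IL-2, IL-7 and IL-15 and STAT6 for IL-4. NK cells depend on IL-15 through IL-2Rβ and the common gamma chain for their survival.

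RNA was sequenced from 34 bulk libraries, 2 for each of 17 groups in 4 experiments, and 1 further matrix held single cells. The gestation experiment compared trNK cells (sorted as CD45+ NK1.1+ NKp46+ CD49a+ CXCR6-) of virgin mice and of mice at gestation day (gd) 6.5 and 8.5. The subset experiment divided the same gate at gd8.5 by CD55 and 4-1BB into cells low (trNK-V), intermediate (trNK-D) and high (trNK-T) for both proteins. In the 72 h culture, trNK-V cells that the study took from gd6.5 mice were kept for 3 days without IL-21, with 20 ng/mL IL-21, or with IL-21 and Stattic, an inhibitor of STAT3 (1 μM in the labels, whereas the methods give the dose in mM), and were recovered as live NK1.1+ lymphocytes. The methods put 10 ng/mL IL-15 into the medium of all 3 groups. The time course held cultured trNK cells, which the study also took as trNK-V cells from gd6.5 mice. They were held at 0, 6, 24 and 72 h with IL-15, alone or with 20 ng/mL IL-21, so IL-15 was present in all 8 groups of this experiment. Its labels give both 10 and 15 ng/mL for IL-15. Nothing in the labels says whether the 2 libraries of a group came from separate mice, so the p-values measure the spread between these libraries, which may be technical. A gene was called where edgeR's quasi-likelihood test gave a Benjamini-Hochberg adjusted p below 0.05 over all genes tested and a fold change above 2. Library totals ran from 11862089 to 66468883 counts.

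On GRCm38 (mm10), Il4ra (chr7:125552120-125579474) and Il21r (chr7:125603429-125633570) are neighbours on the plus strand of chromosome 7 with 23954 bases between them. Il2ra (chr2:11642807-11693193) and Il15ra (chr2:11705290-11734317) are neighbours on the plus strand of chromosome 2, 12096 bases apart. Il2rb (chr15:78479256-78495271) and Il7r (chr15:9505788-9530176) lie far apart on the minus strand of chromosome 15, and Il2rg (chrX:101264378-101268255) on the minus strand of the X chromosome. The exons of Gm20489, on the same strand, cover 30.5% of the exon bases of Il2rg, and those of the antisense gene Gm44876 cover 9.5% of those of Il4ra. Reads in the shared exons of Il2rg cannot be told apart by strand, and for Il4ra the sources used here do not state whether reads were counted by strand, so the levels of both are uncertain to that extent. Gm20489 held at most 25 counts and Gm44876 at most 11 in any library.

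Promoter windows (250 bases before to 50 bases after the RefSeq start, GRCm38.p6) were given for 6 of the 7 genes. The windows of Il21r (chr7:125603179-125603478, plus strand) and Il4ra (chr7:125552021-125552320, plus strand) are shown because these neighbours were the receptor genes called lower in trNK-T than in trNK-V. That of Il7r (chr15:9529827-9530126, minus strand) is shown because it alone of the 6 genes held the letters TTCNNNGAA, the core of the STAT binding motif, printed in capitals.
Il21r: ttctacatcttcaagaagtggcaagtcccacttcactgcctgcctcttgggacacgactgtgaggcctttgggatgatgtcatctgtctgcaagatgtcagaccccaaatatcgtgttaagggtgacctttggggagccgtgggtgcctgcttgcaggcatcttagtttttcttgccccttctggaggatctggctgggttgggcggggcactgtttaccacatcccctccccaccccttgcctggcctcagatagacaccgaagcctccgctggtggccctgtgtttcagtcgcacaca
Il4ra: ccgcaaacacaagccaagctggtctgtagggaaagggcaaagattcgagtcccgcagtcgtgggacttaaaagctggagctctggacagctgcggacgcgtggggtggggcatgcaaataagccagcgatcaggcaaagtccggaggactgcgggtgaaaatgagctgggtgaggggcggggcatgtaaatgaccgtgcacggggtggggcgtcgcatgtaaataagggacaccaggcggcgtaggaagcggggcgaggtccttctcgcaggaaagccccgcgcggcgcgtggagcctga
Il7r: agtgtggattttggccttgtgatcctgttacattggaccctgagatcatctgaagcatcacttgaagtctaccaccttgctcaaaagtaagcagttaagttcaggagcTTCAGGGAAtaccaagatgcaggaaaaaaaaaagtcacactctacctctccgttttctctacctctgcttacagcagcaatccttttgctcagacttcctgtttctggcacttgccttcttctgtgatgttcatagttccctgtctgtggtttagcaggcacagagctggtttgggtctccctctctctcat
The motif reads the same on both strands and was found in 8.3% of all 32851 promoter windows. The match in Il7r began 142 bases before the start. The window of Il4ra held 62.0% G and C and 25 CpG dinucleotides and that of Il21r 56.0% and 7, against medians of 52.7% and 7 over all windows.

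The chain shared by all these receptors and IL-2Rβ were the abundant members in every bulk library. In RPKM, the count scaled to exon length and library total and so a level per length, Il2rg ranged from 163 to 858 over the 34 libraries and Il2rb from 192 to 544 over the 12 libraries of fresh cells and 6 of the 72 h culture, but from 30.2 to 77.1 in the 16 of the time course. Il21r held 3.55 to 63.1 RPKM in the first 18 libraries and 0.434 to 3.39 in the time course. Il4ra followed the same order, with 3.25 to 18.2 RPKM against 0.111 to 3.10. Il15ra reached 4.55 to 18.7 RPKM in the first 18 libraries and 1.39 to 8.53 in the time course, and Il2ra 0.00961 to 14.4 and 0.804 to 7.59. The time course was made with another amplification kit than the other bulk libraries, so the kit and the experiment cannot be told apart, and levels were compared within an experiment only.

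Il7r, the α chain of the IL-7 receptor, was listed at 0 counts in 21 of the 34 libraries, among them all 10 of gd6.5, gd8.5 and the 3 subsets. Its counts were scattered between replicates. The 2 virgin libraries held 637 and 5 counts, the 72 h time course without IL-21 645 and 0, and the 72 h culture without IL-21 0 and 168. At 0 h of the time course the IL-21 libraries held 145 and 74 counts and those without it 0 and 0. No fold change is given for Il7r, since in each comparison at least 1 group was at 0 or disagreed between replicates.

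In the course of gestation, Il21r stood highest in virgin mice and lowest at gd8.5. The virgin libraries held 49.7 and 46.1 RPKM of Il21r, the gd6.5 libraries 32.9 and 43.0, and the gd8.5 libraries 23.7 and 22.6. No 2 of these groups overlapped. The log2 fold change of Il21r from virgin to gd8.5 was -1.06 ± 0.19 (SE), with an unadjusted p of 0.001 from edgeR and an adjusted p of 0.242, and it was not called. Without 1 library this fold change ran from -1.09 to -1.04. Il2ra, the α chain that raises the affinity for IL-2, went the other way, with 2.49 and 5.81 RPKM in the virgin group, 4.46 and 1.74 in that of gd6.5, and 14 and 11.9 at gd8.5. Both gd8.5 libraries lay above the other 4, while virgin and gd6.5 overlapped. The log2 fold change of Il2ra against gd6.5 was 2.07 ± 0.59 (adjusted p = 0.290, edgeR) and against virgin 1.60 ± 0.58 (adjusted p = 0.451, edgeR). Without 1 library these ran from 1.52 to 2.95, both ends set by leaving out a gd6.5 library, and from 1.07 to 2.43, both by leaving out a virgin library.

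From virgin to gd8.5 the shared chains differed less than Il21r and Il2ra, with log2 fold changes of -0.24 for Il2rg and -0.15 for Il2rb. From virgin to gd6.5, however, Il2rg had the largest fold change of the members tested. Il2rg was lowest on the day between, with 278 and 311 RPKM at gd6.5 against 551 and 495 in virgin mice and 430 and 460 on gd8.5. Its log2 fold change from virgin to gd6.5 was -0.86 ± 0.16 (adjusted p = 0.0954, edgeR). Il2rb was highest on that day, with 495 and 544 RPKM at gd6.5 above 435 and 290 in virgin mice and 335 and 318 at gd8.5, and its log2 fold change from gd6.5 to gd8.5 was -0.64 ± 0.19 (adjusted p = 0.305, edgeR). Il15ra, which binds IL-15 and presents it to neighbouring cells, held 6.97 to 14.6 RPKM and Il4ra 5.37 to 14.8 in these 6 libraries.

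edgeR called none of the 6 members tested in any of the 3 gestation comparisons, beside 0.0356% of 14040 genes between gd6.5 and virgin, 0.0356% between gd8.5 and virgin and 0.0% between gd8.5 and gd6.5. At an unadjusted p below 0.05 there were 2, 2 and 4 members, where 17.2%, 10.0% and 11.7% of all genes stood. Libraries of the 2 groups did not overlap for 5, 4 and 6 of the 7 members, against 47.1%, 39.1% and 51.0% of all genes tested. The counts of both comparisons with virgin include Il7r, which was not tested there. DESeq2 called Il21r between gd8.5 and virgin, where it called 2.47% of all genes, and Il2ra between gd8.5 and gd6.5, where it called 3.2%, and limma called no member. The 2 virgin libraries differed in 7 genes that mark the terminal trNK stage, which summed to 811.4 RPKM in replicate 1 and 8320.0 in replicate 2. Gamma delta T cell markers summed to 203.5 and 39.65 RPKM in these libraries and erythrocyte markers to 12.75 and 223.5, and the latter to 844 in 1 gd8.5 library against 0.251 in the other. The 4 trNK markers summed to 1220 to 1240 RPKM in virgin mice, 710 to 741 at gd6.5 and 922 to 933 at gd8.5, the order in which Il2rg stood. For the same groups, macrophage markers summed to 16.6 to 25.6, 8.62 to 9.82 and 17.5 to 17.6 RPKM. Neutrophil or monocyte markers summed to 34.2 to 68.7, 2.54 to 11.5 and 20.1 to 43.0, and T cell markers to 468 to 599, 280 to 421 and 452 to 485. Endothelial and epithelial markers went the other way, with their highest sums at gd6.5, of 44.4 and 35.2 RPKM. The part of these differences in the gestation comparisons was not tested. The 3 comparisons share groups, so their values are not independent of each other.

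**Figure D1:**
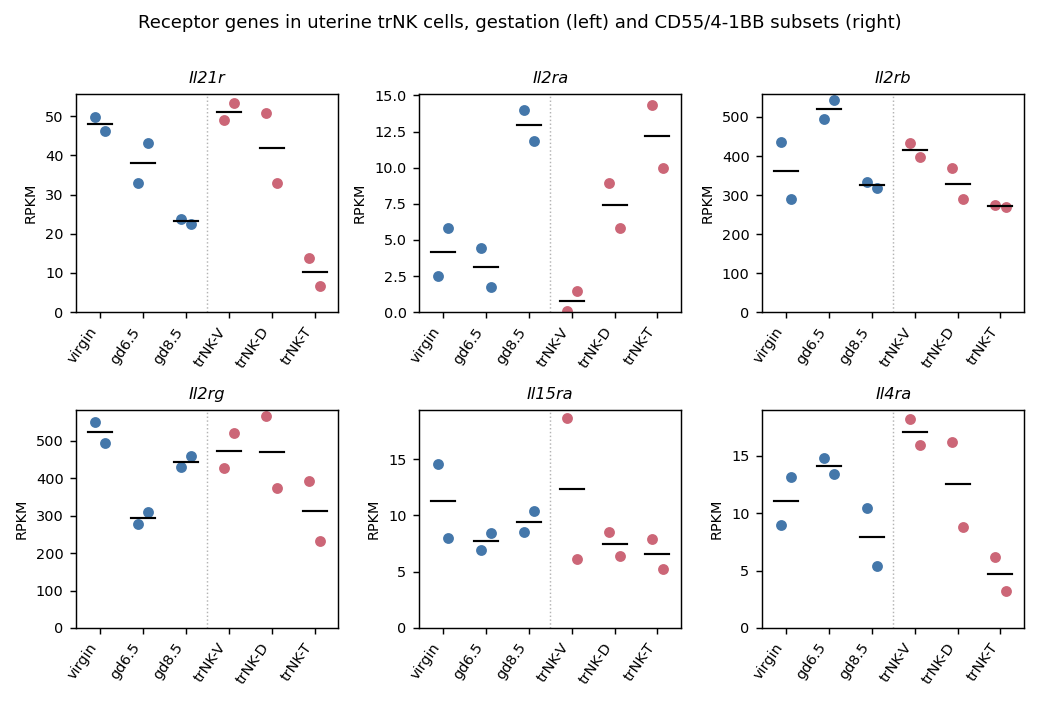
RPKM (linear axes from 0) of 6 receptor genes in each library of the gestation groups (blue) and of the CD55/4-1BB subsets at gd8.5 (red), with the group mean as a line and 2 libraries per group. Il21r and Il4ra are lowest in trNK-T, where Il21r lies at 13.9 and 6.72 RPKM, whereas Il2ra is higher in trNK-T than in trNK-V.

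Between the subsets at gd8.5, Il21r and Il4ra were lower in trNK-T than in trNK-V, 2 of the 3 calls made for a member. Il21r held 49.0 and 53.2 RPKM in trNK-V, 50.8 and 32.8 in trNK-D, and 13.9 and 6.72 in trNK-T. The trNK-T libraries lay below the other 4, whereas trNK-V and trNK-D overlapped. Against trNK-V the log2 fold change of Il21r in trNK-T was -2.13 ± 0.36 (adjusted p = 0.0241, edgeR), a call, and against trNK-D it was -1.95 ± 0.36 (adjusted p = 0.166, edgeR).

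Il4ra, the ligand-binding chain for IL-4 whose gene lies beside Il21r, held 18.2 and 15.98 RPKM in trNK-V, 16.2 and 8.81 in trNK-D, and 6.21 and 3.25 in trNK-T. The trNK-T libraries were again the lowest, and trNK-D overlapped trNK-V. Il4ra fell by 1.67 on the log2 scale from trNK-V to trNK-T (SE 0.38, adjusted p = 0.0477, edgeR). Both calls rested on few libraries. Il21r was called in 3 of the 6 fits that left out 1 library, with adjusted p from 0.0215 to 0.0894, and was lost without trNK-V replicate 1, trNK-V replicate 2 or trNK-T replicate 2. Il4ra was called in 2 of the 6, the 2 without a trNK-D library, with adjusted p from 0.0364 to 0.233, and it was not called by limma (adjusted p = 0.0531). Over those fits the log2 fold change ran from -2.71 to -1.72 for Il21r and from -2.18 to -1.30 for Il4ra.

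Il2ra was higher where CD55 and 4-1BB were higher. It held 0.0681 and 1.48 RPKM in trNK-V, 8.96 and 5.84 in trNK-D and 14.4 and 9.99 in trNK-T, and no 2 of these subsets overlapped. The log2 fold change in trNK-T against trNK-V was 4.16 ± 1.09 (adjusted p = 0.0670, edgeR), just outside the call, and in trNK-D against trNK-V 3.36 ± 1.06 (adjusted p = 0.320, edgeR). In trNK-T against trNK-D it was 0.80 ± 0.95 (adjusted p = 0.835, edgeR). The fold change in trNK-T against trNK-V was 3.22 without trNK-V replicate 1 and 7.65 without trNK-V replicate 2. DESeq2 and limma called it, beside 14.9% and 5.49% of all genes. Without 1 library that in trNK-D against trNK-V ran from 2.42 (without trNK-V replicate 1) to 6.86 (without trNK-V replicate 2).

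Il2rb held 433 and 398 RPKM in trNK-V, 369 and 290 in trNK-D and 274 and 270 in trNK-T, again without overlap. Its log2 fold change of -0.42 ± 0.15 in trNK-T against trNK-V was under the 2-fold limit and had an adjusted p of 0.136 (edgeR). Il2rg, at 427 and 520, 566 and 375, and 392 and 231 RPKM, differed between trNK-T and trNK-V by -0.42 ± 0.28 on the log2 scale (adjusted p = 0.381, edgeR). Il15ra lay between 5.25 and 18.7 RPKM, with its highest value and its second lowest both in trNK-V, and Il7r had 0 counts in all 6 libraries, which allows up to 3 counts in each.

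Thus 2 of 6 members tested were called between trNK-T and trNK-V, both lower, beside 6.75% of 14335 genes called and 3.4% called lower. The median log2 fold change of the members was -0.58, against -0.05 over all genes. The libraries did not overlap for 5 of the 7 members, where 59.8% of all genes did not, and 4 members had an unadjusted p below 0.05, where 27.3% of all genes did. For trNK-D against trNK-V no member was called beside 0.00698% of all genes, with 1 member at an unadjusted p below 0.05 (12.3% of all genes) and 2 of 7 without overlap (42.8%). For trNK-T against trNK-D none was called beside 0.0767%, with 2 members at an unadjusted p below 0.05 (11.5%) and 4 of 7 without overlap (47.8%), and DESeq2 called Il21r and Il4ra there, beside 3.32% of all genes. The 7 members include Il7r, which was not tested between the subsets and is counted as overlapping, whereas the shares cover tested genes only. These comparisons share groups, so their values are not independent of each other.

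The gate was found in the RNA. Tnfrsf9, which encodes 4-1BB, and Cd55 rose from trNK-V to trNK-T by 3.09 ± 0.23 (adjusted p = 0.00458, edgeR) and 4.12 ± 0.54 (adjusted p = 0.0152, edgeR) on the log2 scale. The 4 trNK markers summed to 1380 to 1390 RPKM in trNK-V and 644 to 799 in trNK-T, and 1 of them, Klrb1c, which encodes NK1.1, was called lower (-1.51 ± 0.23, adjusted p = 0.018, edgeR). Markers listed for other cells moved with the gate as well. The 6 mast cell or basophil markers summed to 0.0 to 0.233 RPKM in trNK-V and 44.5 to 50 in trNK-T, where Mcpt4, Tpsb2 and Fcer1a were at 0 and 2 of 3 markers tested, Cpa3 and Mcpt8, were called higher. In the single-cell data, Mcpt8 was found in 10.47% and Cpa3 in 5.50% of the cells of cluster 5, and Mcpt8 in 3.64% and 4.48% of trNK-like clusters 1 and 6. The 6 ILC1 markers summed to 37.3 to 92.6 RPKM in trNK-V and 15.4 to 17 in trNK-T, where Cxcr6 and Cd200r1 were at 0 and 1 of 6 tested, Tmem176b, was called lower. Of the 9 cNK markers 3 were called lower, Itga2, Zeb2 and Klrb1c, and Klrb1c is also 1 of the 4 trNK markers. The 3 epithelial markers summed to 6.54 to 10.3 RPKM in trNK-V and 53.3 to 58 in trNK-T, where Epcam was called higher and Krt8 and Krt18 were at 0. The 3 endothelial markers summed to 19.6 to 21 and 46.1 to 49.9 RPKM, with Pecam1 called higher. The 3 dendritic cell markers summed to 2.32 to 70.7 RPKM in trNK-V, 0.148 to 147 in trNK-D and 0.0 to 0.165 in trNK-T. The 4 stromal markers summed to 2.78 to 36.8 and 0.283 to 0.497 RPKM in trNK-V and trNK-T, and the 7 T cell markers to 531 to 572 and 237 to 381, with Cd4 and Cd8a at 0 in both. Of 5 T cell markers tested, Cd3g and Cd3d were called lower in trNK-T, with log2 fold changes of -2.16 and -4.26, and the 5 gamma delta T cell markers summed to 119 to 156 RPKM in trNK-V and 24.7 to 39.7 in trNK-T. The 6 macrophage markers summed to 25 to 29.1 RPKM in trNK-V and 10.3 to 16.2 in trNK-T, with none of 6 called, and the 4 ILC2 markers to 18.7 to 26.1 and 8.95 to 9.71. The 3 plasma cell markers summed to 13.9 to 20.5 RPKM in trNK-V, 2.58 to 2.92 in trNK-T and 22800 in trNK-D replicate 2. The part of all these markers in the lower Il21r and Il4ra was not tested. In bulk RNA, fewer cells that carry a transcript and less of it per cell cannot be told apart.

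Of the 20 other genes of the pathway, 15 were tested between trNK-T and trNK-V. Jak1, the kinase bound to IL-21R, IL-2Rβ, IL-4Rα and IL-7Rα, was the 1 gene called, at 127 and 126 RPKM in trNK-V, 86.1 and 66.9 in trNK-D and 55.5 and 55.2 in trNK-T (log2 fold change -1.01 ± 0.16, adjusted p = 0.0198, edgeR). The fold change of Jak1 lay at the limit of a call, and it was called in 1 of the 6 fits without 1 library and 4 of the 7 other alternatives. This 1 call among 15 stood beside 6.75% of all genes called. Another 7 pathway genes had an unadjusted p below 0.05, where 27.3% of all genes did. The median log2 fold change over the 15 was -0.89, against -0.05 over all genes. No pathway gene was called in the gestation comparisons or in the other 2 subset comparisons. The ligand gene Il21 was at 0 counts in 32 of the 34 libraries and reached at most 2 counts, and Il9 was at 0 in all 34.

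After 72 h of culture, both the receptor for IL-21 and the α chain for IL-2 stood higher with IL-21 and lower again with Stattic, without a call. Il21r held 18.02 and 9.25 RPKM without IL-21, 33.8 and 63.1 with IL-21, and 14.1 and 3.55 with IL-21 and Stattic. Both IL-21 libraries lay above the other 4. The log2 fold change of Il21r was 2.03 ± 0.69 for IL-21 against none (unadjusted p = 0.0220, adjusted p = 0.921, edgeR) and -2.37 ± 0.69 for Stattic against IL-21 alone (unadjusted p = 0.0117, adjusted p = 0.279, edgeR). Without 1 library the first ran from 1.58 (without control replicate 2) to 2.68 (without control replicate 1), and the second from -3.57 to -1.73 (without Stattic replicate 1 or 2). Il2ra held 1.70 and 0.00961 RPKM without IL-21, 13.95 and 11.5 with IL-21, and 0.522 and 1.28 with Stattic. Here too the IL-21 libraries were the 2 highest, and the other 4 overlapped. Its log2 fold changes were 4.09 ± 1.63 (adjusted p = 0.945, edgeR) and -3.70 ± 1.60 (adjusted p = 0.403, edgeR). The first was 10.49 without control replicate 1 and 3.10 without control replicate 2. In the same groups the 7 genes of the terminal trNK stage summed to 1840 to 2750, 21900 to 32800 and 3510 to 5690 RPKM, and the 4 trNK markers to 966 to 1100, 313 to 367 and 228 to 234. The 6 mast cell or basophil markers summed to 0.0 to 1.77, 3.64 to 24.9 and 0.237 to 3.03 RPKM. The 7 T cell markers summed to 509 to 571, 322 to 441 and 236 to 287 RPKM. The part of all these markers in Il21r and Il2ra was not tested.

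Il4ra held 6.48 and 7.03 RPKM without IL-21, 7.07 and 12.9 with IL-21 and 5.87 and 4.91 with Stattic, with differences within 0.79 on the log2 scale. Il2rb ran from 192 to 436 RPKM, Il2rg from 477 to 650 and Il15ra from 4.55 to 13.7, and the groups without and with IL-21 overlapped for each of these 3 genes. Of 7 members tested, none was called for IL-21 against none beside 0.0% of 13647 genes, for Stattic against IL-21 beside 0.00733%, or for Stattic against none beside 0.154%. At an unadjusted p below 0.05 stood 2, 1 and 0 members, where 5.2%, 12.7% and 14.6% of all genes did. Libraries did not overlap for 3, 4 and 1 of the 7 members, against 36.6%, 42.5% and 46.2% of all genes. DESeq2 called Il21r for Stattic against IL-21, beside 6.01% of all genes, and limma called no member. With no filter on low counts edgeR called Il21r and Il2ra in the first 2 comparisons, beside 0.687% and 2.17% of all genes. Among the pathway genes none was called. Jak1, named after its values were seen, held 157 and 156 RPKM without IL-21, 80.3 and 73.3 with IL-21, and 141 and 142 with Stattic, and the log2 fold changes of Jak1 were -0.78 ± 0.28 and 0.97 ± 0.28 (adjusted p = 0.921 and 0.279, edgeR). At 72 h of the time course Jak1 was not lower with IL-21, at 44.0 and 43.7 RPKM without it and 60.2 and 44.5 with it. At 24 h it held 51.5 and 42.4 RPKM without and 41.8 and 35.8 with IL-21, and at 6 h these groups overlapped. The culture comparisons share groups.

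**Figure D2:**
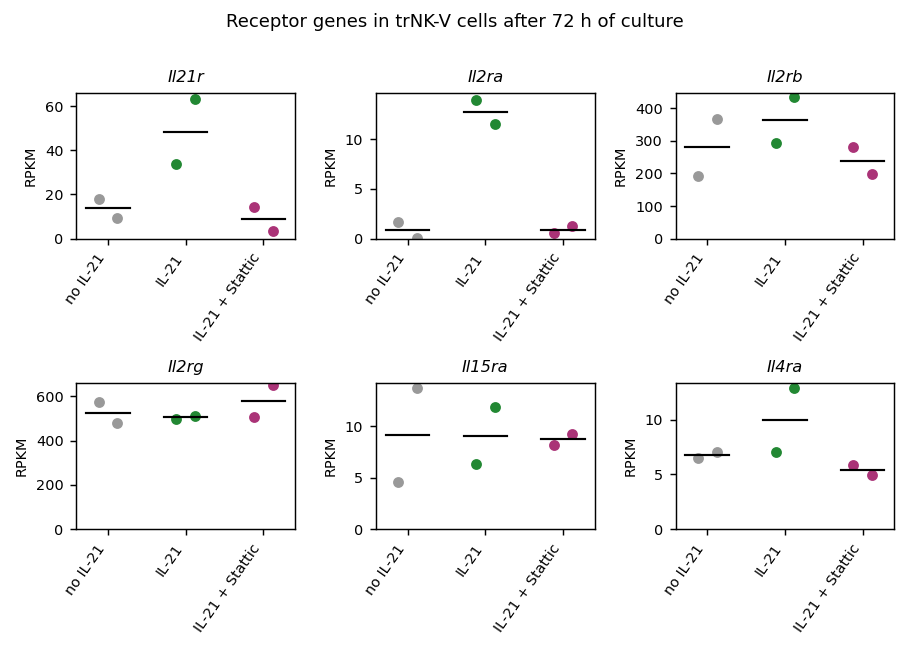
RPKM (linear axes from 0) of 6 receptor genes in trNK-V cells after 72 h without IL-21 (grey), with IL-21 (green) and with IL-21 and Stattic (purple), 2 libraries per group and the group mean as a line. The 2 IL-21 libraries are the highest for Il21r, at 33.8 and 63.1 RPKM, and for Il2ra, at 13.95 and 11.5 RPKM.

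In the time course, Il21r stood higher with IL-21 at every time, the 0 h background included. At 6 h it held 0.949 and 0.435 RPKM without IL-21 and 3.39 and 2.66 with it, a log2 fold change of 2.15 ± 0.71 (unadjusted p = 0.0107, adjusted p = 0.771, edgeR) that ran from 1.74 to 2.72 without 1 of the no-IL-21 libraries. At 0 h the values were 0.869 and 0.562 against 1.43 and 1.61, at 24 h 0.704 and 0.793 against 1.57 and 1.26, and at 72 h 0.948 and 1.30 against 2.68 and 1.48. The 2 libraries with IL-21 were above the 2 without it at all 4 times, among them 0 h, for which the labels do not say how long IL-21 was present. The log2 fold change of Il21r at 0 h was 1.05 ± 0.69, larger than the 0.80 ± 0.69 at 24 h, and neither was called.

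Il2ra without IL-21 stood lower at 6 and 24 h than at 0 h, and with IL-21 near its 0 h level, with no call. It held 7.59 and 5.75 RPKM at 0 h without IL-21, 4.78 and 0.977 at 6 h, 1.77 and 0.804 at 24 h and 5.68 and 1.59 at 72 h. With IL-21 the values were 7.38 and 4.58, 6.40 and 6.63, 6.90 and 6.45, and 5.23 and 1.10. The groups did not overlap at 6 and 24 h and overlapped at 0 and 72 h. At 24 h the log2 fold change of Il2ra was 2.27 ± 0.83 (unadjusted p = 0.0178, adjusted p = 0.785, edgeR), and the IL-21 effect at 72 h differed from that at 24 h by -2.67 ± 1.13 (adjusted p = 0.306, edgeR, interaction), so neither was called. Without 1 library the first ran from 1.82 to 2.92 (without no-IL-21 replicate 2 or 1 at 24 h) and the second from -3.79 (without IL-21 replicate 1 at 72 h) to -1.61 (without no-IL-21 replicate 1 at 72 h). Without and with IL-21, the 7 genes of the terminal trNK stage summed to 7370 to 7530 and 16900 to 24700 RPKM at 6 h. At 24 h they summed to 6830 to 7600 and 13500 to 13800 RPKM. The 4 trNK markers summed to 1250 to 1320 and 577 to 617 RPKM at 6 h. At 24 h their sums were 1400 to 1500 and 866 to 898 RPKM. The part of these markers in Il21r and Il2ra was not tested.

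Il2rg was the 1 member called with IL-21, at 72 h of the time course only and not in the 72 h culture. At that time it held 351 and 163 RPKM without IL-21 and 858 and 406 with it, whereas at 24 h the values were 400 and 416 against 389 and 361. Its log2 fold change at 72 h was 1.15 ± 0.28 (adjusted p = 0.0345, edgeR). The groups did not overlap, but the 2 libraries of each group lay about as far apart as the groups. The call was lost in 10 of the 16 fits that left out 1 library, with adjusted p up to 0.157, and in the fit of the 4 libraries at 72 h alone (adjusted p = 0.633). It was lost without either no-IL-21 library at 0 or 24 h, either IL-21 library at 6 or 24 h, no-IL-21 replicate 2 at 72 h (log2 fold change 0.78) or IL-21 replicate 1 at 72 h (0.84). The IL-21 effect at 72 h differed from that at 24 h by 1.38 ± 0.39 on the log2 scale, with an adjusted p of 0.104 (edgeR, interaction), which was no call. Without 1 library the log2 fold change of Il2rg at 72 h ran from 0.78 to 1.70. In the 72 h culture it was 0.18 ± 0.32, with 574 and 477 RPKM without IL-21 and 499 and 511 with it. The log2 fold changes of the culture and of the time course at 72 h differed in sign for Il2ra (4.09 and -0.40) and Il4ra (0.79 and -2.45). So did those of Il15ra (0.25 and -0.79) and Il2rb (0.63 and -0.01). Those of Il21r (2.03 and 0.71) and Il2rg did not.

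Il4ra had 3.10 and 1.45 RPKM at 72 h without IL-21 and 0.884 and 0.111 with it (log2 fold change -2.45 ± 0.92, adjusted p = 0.167, edgeR). This fold change was -4.17 without IL-21 replicate 1 and -1.66 without IL-21 replicate 2. At the earlier times its libraries lay between 0.272 and 1.51 RPKM. Il15ra held 8.53 and 7.69 RPKM at 24 h without IL-21 against 5.49 and 3.08 with it, and 5.27 and 7.45 against 7.63 and 1.39 at 72 h, where the groups overlapped. Il2rb was between 30.2 and 77.1 RPKM in all 16 libraries, with 36.1 and 30.2 without and 57.6 and 47.6 with IL-21 at 24 h.

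For IL-21 against none, none of the 7 members was called at 0 h beside 0.0% of 14879 genes, at 6 h beside 0.0672% or at 24 h beside 0.00672%. At 72 h 1 of 7 was called, beside 5.07% of all genes called and 4.41% called higher. At an unadjusted p below 0.05 edgeR had 0, 1, 1 and 2 members at 0, 6, 24 and 72 h, where 1.8%, 4.5%, 5.17% and 19.5% of all genes stood. Libraries did not overlap for 5, 4, 6 and 3 of the 7 members, against 28.3%, 41.5%, 46.7% and 28.9% of all genes. DESeq2 called Il7r at 0 and 6 h, Il21r at 6 h, and Il4ra beside Il2rg at 72 h, where it called 0.285%, 1.47% and 17.4% of all genes at 0, 6 and 72 h. Between times no member was called from 0 to 6 h (0.0%), 6 to 24 h (0.0%) or 24 to 72 h (7.68% of all genes) without IL-21, or from 24 to 72 h with it (2.31%). At an unadjusted p below 0.05 stood 0, 1, 2 and 1 members, against 1.81%, 3.32%, 22% and 13.4% of all genes, and 2, 1, 5 and 2 of the 7 did not overlap, against 32.9%, 37.5%, 43.8% and 46.8%. No difference in the IL-21 effect between times was called for a member, beside 0.0% of all genes for 24 against 6 h, 2.43% for 72 against 24 h and 2.47% for 72 against 6 h, with 0, 3 and 2 members at an unadjusted p below 0.05 (2.06%, 14.3% and 14.5% of all genes). All of these comparisons share groups.

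Of the 15 pathway genes tested, Socs1, a feedback inhibitor of the JAK kinases that cytokines induce, was called in 2 comparisons. It held 0.710 and 0.826 RPKM at 72 h without IL-21 and 7.99 and 2.88 with it (log2 fold change 2.60 ± 0.65, adjusted p = 0.0415, edgeR). Without IL-21 it fell by 2.38 on the log2 scale from 24 to 72 h (SE 0.64, adjusted p = 0.0433, edgeR). Socs1 was the 1 pathway gene of 15 called in each comparison, beside 5.07% and 7.68% of all genes. Each of these calls held in few of the 16 fits without 1 library, 1 for the first and 2 for the second, and in 3 and 2 of the 6 other alternatives. From 24 to 72 h without IL-21 the 4 genes of dividing cells went from 951 to 1000 down to 14.8 to 15.3 RPKM in sum and the 7 of the terminal trNK stage from 6830 to 7600 down to 1320 to 2740. At 72 h, 2 of 4 genes of dividing cells and 4 of 7 genes of the terminal trNK stage were also called higher with IL-21. Of 8 cNK markers tested 1, Itgam, which was at 0 without IL-21, was called higher too. Without and with IL-21 at 72 h the 6 macrophage markers summed to 0.0 to 9.19 and 27.8 to 67.9 RPKM, with C1qa, C1qb, C1qc, Csf1r and Adgre1 at 0 in both, the 6 mast cell or basophil markers to 0.0 to 0.934 and 4.94 to 7.25, and the 4 trNK markers to 1520 to 1580 and 1060 to 1370. The part of these markers in the values of Il2rg and Socs1 was not tested.

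**Figure D3:**
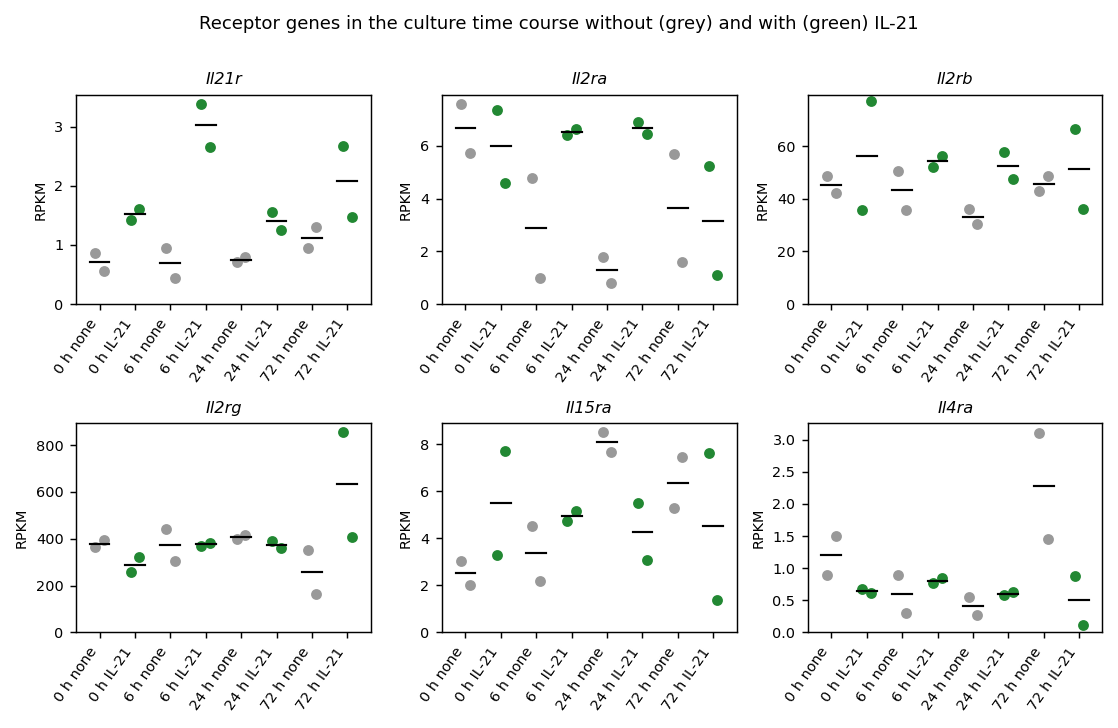
RPKM (linear axes from 0) of 6 receptor genes in each library of the time course without (grey) and with (green) IL-21, with 2 libraries per group and the group mean as a line. Il21r is above the libraries without IL-21 at each time, 0 h included, and Il2rg reaches 858 and 406 RPKM with IL-21 at 72 h.

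**Figure D4:**
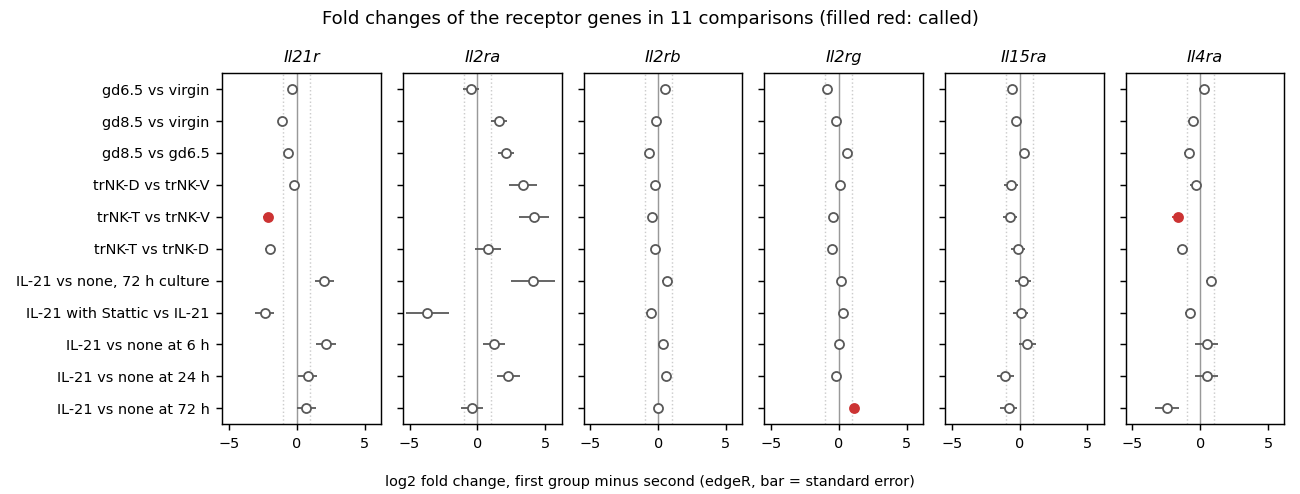
Log2 fold change (first group minus second, bars are standard errors) of 6 receptor genes in 11 comparisons by edgeR, with dotted lines at a 2-fold change and called values filled in red. The 3 called values are -2.13 for Il21r and -1.67 for Il4ra in trNK-T against trNK-V, and 1.15 for Il2rg with IL-21 at 72 h of the time course.

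Few members followed each other over the libraries. With log2 CPM (counts scaled to a common library total) centred on the mean of each experiment over 34 libraries, Pearson's r was 0.58 between Il21r and Il2rb, 0.43 between Il2rb and Il4ra, 0.35 between Il21r and its neighbour Il4ra, and -0.26 between Il2ra and its neighbour Il15ra. Among 11995 genes tested in all 4 experiments, those closest to Il21r were Gpr18 (r = 0.732), Gpr171 (r = 0.719) and Zfp683 (r = 0.717). Closest to Il2ra were Vma21 (r = 0.740), Cycs (r = 0.725) and Wdr89 (r = 0.725), to Il2rb Ablim1 (r = 0.738), Tcf25 (r = 0.697) and Ptk2b (r = 0.673), and to Il2rg Atp6v1d (r = 0.801), Ly6e (r = 0.777) and Cd200r4 (r = 0.774). For Il15ra they were Chmp2b (r = 0.739), Pbrm1 (r = 0.722) and Rnf2 (r = 0.682), and for Il4ra Camk2g (r = 0.707), Rrad (r = 0.692) and Ormdl3 (r = 0.679). Libraries of 1 experiment share a kit, and each r is the highest of many.

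Single cells sorted as CD45+ NK1.1+ NKp46+ were held in 2 files labelled virgin and gd8.5. Both listed an identical set of 15175 cells but had no gene in common, so they were joined into 1 matrix in which the 2 conditions cannot be told apart. Each value below is therefore from 1 pooled sample, with no test, and its interval covers counting error only. Of the 15175 cells, 8907 passed the limits on genes and mitochondrial share, with a median of 2576 UMIs, and formed 17 clusters made without the receptor and pathway genes. Itga1, Eomes, Ncr1 and Klrb1c named 6 of them trNK-like, with 4201 cells, while 1061 cells were cNK-like. Despite the sort, 1387 cells were macrophage-like, 305 B-like, 250 T-like, 212 stromal-like and 122 dendritic-like.

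Among trNK-like cells, Il2rb was the most abundant member at 1964 CPM, its UMIs scaled to a common total (95% Poisson interval 1941 to 1987), followed by Il2rg at 726 (712 to 740). Il2ra stood at 66.5 CPM (62.3 to 70.8), Il21r at 61.4 (57.4 to 65.6), Il4ra at 48.0 (44.5 to 51.7), Il15ra at 15.4 (13.4 to 17.6) and Il7r at 5.02 (3.92 to 6.32). The intervals of Il2ra and Il21r overlapped and those of all other neighbours in this order did not. Below Il2rb and Il2rg the order turned with the filter on cells. With 200 to 2500 UMIs per cell it was Il21r (96.7 CPM), Il4ra (74.4), Il2ra (46.8), Il7r (28.3) and Il15ra (18.8). With no upper limit on genes it was Il2ra (145), Il4ra (34.1), Il21r (33.2), Il15ra (13.4) and Il7r (1.39). UMI counts at transcript ends are not divided by length, so the order holds for molecules counted, not for levels per length.

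To allow for depth, each cell was thinned to 1000 UMIs, which left out 342 of the 4201 trNK-like cells. A UMI of Il2rb was then found in 80.7% of them (95% exact binomial interval 79.4% to 82.0%) and of Il2rg in 48.5% (46.9% to 50.1%), against 93.8% and 76.6% before thinning. In stromal-like cells, which should lack both genes, the thinned shares were 21.4% and 8.74%, taken here as background from whatever source, with median depths of 3073 UMIs in trNK-like and 2328 in stromal-like cells. For Il21r the share was 6.43% (5.67% to 7.25%) in trNK-like against 1.46% (0.301% to 4.20%) in stromal-like cells, and for Il2ra 5.05% (4.38% to 5.79%) against 0.971% (0.118% to 3.46%). Before thinning 16.3% of trNK-like cells held a UMI of Il21r and 11.1% 1 of Il2ra. Il7r reached 0.622% in trNK-like and 0.485% in stromal-like cells, which is background. Il4ra was at 4.54% (3.90% to 5.24%) in trNK-like, 4.37% in stromal-like and 2.20% in erythrocyte-like cells, and at 0.657% (0.214% to 1.53%) in cluster 5, the lowest of any cluster. Stromal cells are not known here to lack Il4ra, so its background was not set. Il15ra was at 1.87% in trNK-like and 0.971% in stromal-like cells and was not resolved from the latter.

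Il21r was lower and Il2ra higher in clusters 1, 5 and 6 than in clusters 2 and 4, a set picked after its values were seen. In trNK-like clusters 7 and 15 the levels were 59.2 and 61.6 CPM of Il21r and 51.6 and 41.1 of Il2ra. Low Il21r did not go with high Il2ra in cNK-like cells, at 34.5 and 17.98 CPM, nor low Il2ra with high Il21r in cluster 8, at 132 CPM of Il21r and 83.3 of Il2ra. Cluster 2, with 1077 trNK-like cells led by Crtam and Xcl1 and rich in Tcf7, a factor of less differentiated lymphocytes, held Il21r at 109 CPM (97.9 to 121) and Il2ra at 40.9 (34.2 to 48.6). Cluster 4, with 1037 trNK-like cells, was close to it, at 87.5 CPM of Il21r (77.1 to 99.1) and 36.3 of Il2ra (29.6 to 43.95). Cluster 1, with 1154 trNK-like cells led by the granzyme genes Gzmc and Gzmf, held Il21r at 28.8 CPM (24.4 to 33.7) and Il2ra at 99.3 (91.0 to 108). Cluster 6, with 513 trNK-like cells that express the genes of division, lay between these 2, at 39.2 CPM of Il21r (31.5 to 48.3) and 68.3 of Il2ra (58.0 to 79.9). Cluster 5 kept too few trNK markers to be named, with only Itga1 and Eomes above the B-like cells. It held 764 cells led by Ctsg, Mt2 and Scin, with Il21r at 2.86 CPM (1.48 to 5.00, 12 UMIs) and Il2ra at 122 (112 to 133).

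Tnfrsf9 and Cd55, the sort markers of the bulk subsets, were among the genes the clusters were made from, so their levels only describe the clusters. Tnfrsf9 was at 689 CPM (661 to 719) in cluster 2, 1505 (1473 to 1538) in cluster 1 and 1124 (1092 to 1156) in cluster 5, and Cd55 at 133 (121 to 146), 378 (362 to 395) and 581 (558 to 604). Cells of these clusters differ in depth, with median UMIs of 2576 in cluster 2, 4899 in cluster 1 and 5718 in cluster 5. Per cell, Il21r stood at 0.319 UMIs in cluster 2, 0.133 in cluster 1 and 0.0157 in cluster 5, and Il2ra at 0.120, 0.460 and 0.672. After thinning, 9.67% (7.95% to 11.6%), 2.96% (2.05% to 4.13%) and 0.394% (0.0814% to 1.15%) of these cells had a UMI of Il21r, and the last of these is below the share in stromal-like cells, so it is read as background. The share in cluster 1 overlapped the interval of stromal-like cells (0.301% to 4.20%) and was not resolved from background either. For Il2ra the thinned shares were 2.68% (1.79% to 3.85%), 8.97% (7.36% to 10.8%) and 10.8% (8.66% to 13.2%), and the first of these lay within the interval of stromal-like cells. Of the thinned trNK-like cells, 248 held Il21r, 195 held Il2ra and 12 held both, where the product of the 2 shares gives 12.5. These cells do not include cluster 5, where the shares were 0.394% and 10.8%, so the count depends on how clusters were named.

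The shared chains and Il4ra took lower shares of the UMIs along the same clusters. From cluster 2 over cluster 1 to cluster 5, Il2rb had 2513, 1757 and 822 CPM, Il2rg 899, 609 and 232 CPM, and Il4ra 86.0 (76.1 to 96.9), 25.1 (20.99 to 29.7) and 9.54 (6.81 to 12.99) CPM. Per cell Il2rb was at 7.35, 8.14 and 4.51 UMIs and Il2rg at 2.63, 2.82 and 1.28, so between clusters 2 and 1 these chains were lower only as a share of a larger total. Il4ra was lower on both scales, at 0.252, 0.116 and 0.0524 UMIs per cell, and its thinned shares were 7.09% (5.61% to 8.82%), 2.51% (1.68% to 3.61%) and 0.657%. Jak1, which was not used to form the clusters, had 810 (779 to 842), 360 (344 to 377) and 324 (307 to 341) CPM, and Socs1 68.2 (59.4 to 78.0), 49.4 (43.6 to 55.7) and 26.9 (22.2 to 32.4). As UMIs in the 1077, 1154 and 764 cells of these clusters, Jak1 gave 2554, 1926 and 1358 and Socs1 215, 264 and 113, so per cell Jak1 was not lower in cluster 5 than in cluster 1, nor Socs1 in cluster 1 than in cluster 2.

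Transcripts of these receptors were also counted in other cells of the matrix. Conventional NK cells (cNK-like, cluster 3) had Il21r at 34.5 CPM (26.8 to 43.6) and Il2ra at 17.98 (12.6 to 24.9), both below the trNK-like class as a whole, with Il2rb at 1860 (1800 to 1920) and Il2rg at 948 (906 to 992). For Il21r this did not hold against trNK-like clusters 1 and 6, at 28.8 and 39.2 CPM, or against the class with no upper limit on genes, at 33.2. After thinning, 3.14% (2.16% to 4.41%) of the cNK-like cells held a UMI of Il21r and 1.57% (0.901% to 2.54%) 1 of Il2ra, shares within the intervals of the stromal-like cells, so neither gene was resolved from background there. Il21r was as high as in cluster 2 in B-like cells (127 CPM, 101 to 158), in dendritic-like cells (126, 94.1 to 165) and in cluster 8 (132, 107 to 161). Cluster 8 held 337 cells with markers of T cells, gamma delta T cells and ILC1, led by Tcrg-C2. In macrophage-like cells Il21r was at 83.4 CPM (74.6 to 92.9). Il4ra was at 107 CPM (97.04 to 118) in macrophage-like, 121 (89.9 to 160) in dendritic-like and 97.6 (72.9 to 128) in T-like cells. Il7r was a gene of T-like cells at 561 CPM (499 to 628) and of cluster 8 at 206 (175 to 242), followed by dendritic-like cells at 109 (79.5 to 146). Il21 gave at most 1 UMI in any of the 17 clusters.

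**Figure D5:**
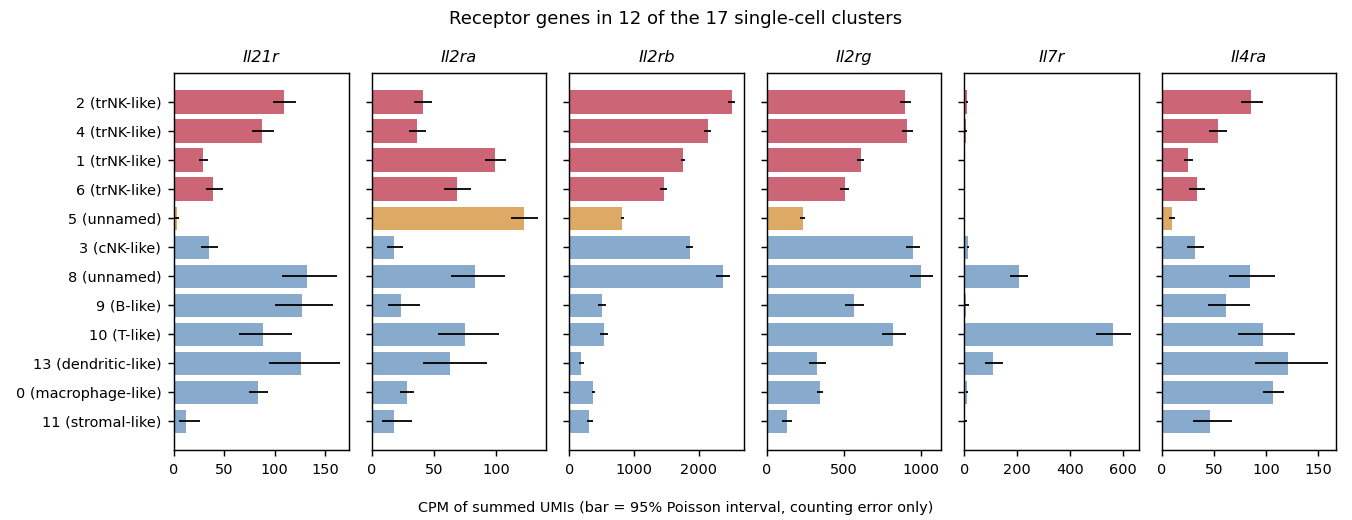
Level in CPM (linear axes from 0) of 6 receptor genes in 12 of the 17 single-cell clusters, with 95% Poisson intervals for counting error, trNK-like clusters in red, the unnamed cluster 5 in orange and other clusters in blue. Il21r is at 109 CPM in cluster 2, 28.8 in cluster 1 and 2.86 in cluster 5, where Il2ra is at 122, and Il7r is highest in T-like cells at 561.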

How the data were processed

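Bulk RNA was analysed from 34 libraries in 17 groups of 2, and single cells from 2 files of 1 joined matrix. The authors deposited raw counts per gene, which the submitters' notes tie to HISAT2 (version 2.1.0), featureCounts and mm10, and single-cell UMI counts from BD Rhapsody. The methods name RSEM, but the values are whole counts. RPKM was computed here from the counts and the exon lengths in the files. The file of virgin replicate 1 listed 55573 genes, whereas those of all other libraries listed 54446. Its RPKM used the exon lengths of the shorter list. The part of this difference in the comparisons with virgin was not tested. Of each library's counts, at least 99.897% lay in the 54353 shared genes.

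The 7 genes and the marker and pathway lists were chosen with earlier results of these data known. Each experiment was fitted alone by edgeR's quasi-likelihood test (version 4.0.16, TMM, filterByExpr), with Benjamini-Hochberg adjustment over all genes tested, as checked on simulated data. The named genes were the 7 members, pathway genes that were called, the 3 genes most like each member by r, and both sort markers. Alternatives were DESeq2 (1.42.0), limma voom (3.58.1), RLE size factors, other filters, only the groups compared, a replicate block and leaving out each library.

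Cells with 200 to 2500 genes and under 10% mitochondrial counts were kept and clustered (scanpy 1.11.5, Leiden resolution 0.8). No doublet caller was run beside the upper limit on genes. Cluster names used listed markers at 3 times the other cells and in at least 10% of a cluster's cells. For trNK genes the limit was 2 times the B-like cells, with no limit on the share of cells. Both kinds needed at least 10 UMIs in the cluster. These limits were set after the clusters were seen. Intervals cover counting error only. The bulk sums of the B cell marker list are not reported here. Libraries of gd11.5, cNK cells and Il21r knockout mice and ATAC-seq were not analysed here.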

Additional observations from a re-analysis of the deposited data

How the results depend on the processing

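The 31 fold changes followed under all alternatives were those of members with an unadjusted p below 0.05 in the main edgeR fit. None reversed, but fold changes picked in this way and refitted on the same libraries could hardly change sign. Of their values, 475 kept their side of the call, 19 lost it and 29 gained it. An uncalled value that stayed uncalled counts as kept. With no filter on low counts, edgeR called 1 member for gd6.5 against virgin (Il7r), 3 for gd8.5 against virgin (Il7r, Il2ra, Il21r), 1 for gd8.5 against gd6.5 (Il2ra), 1 for trNK-D against trNK-V (Il2ra), 2 for trNK-T against trNK-D (Il21r, Il4ra), 2 for IL-21 and 2 for Stattic in the 72 h culture (Il2ra, Il21r), 1 for 72 against 24 h without IL-21 (Il7r), and 1 each for the IL-21 effect at 72 against 24 h (Il2rg) and 6 h (Il7r). DESeq2 called 1 for gd8.5 against virgin (Il21r), 1 for gd8.5 against gd6.5 (Il2ra), 2 for trNK-T against trNK-D (Il21r, Il4ra), 1 for Stattic (Il21r), and for IL-21 1 at 0 h (Il7r), 2 at 6 h (Il7r, Il21r) and 2 at 72 h (Il4ra, Il2rg). It also called 1 for 24 against 6 h (Il7r) and 1 for 72 against 24 h (Il4ra) without IL-21, and 1 for each of the 3 differences in IL-21 effect (Il7r, Il2rg, Il7r). The filter at 10 RPKM called 1 for 72 against 24 h with IL-21 (Il2rg; 14.8% of all genes), and the fit of only the groups compared called 0 at 72 h (0.0%). Without the filter 3.89%, 2.13% and 1.92% of all genes were called in the 3 gestation comparisons in that order, 1.8% and 2.24% in those of trNK-D, 0.687% and 2.17% in the culture, 6.93% for 72 against 24 h, and 3.18% and 3.31% for the IL-21 effect at 72 h. DESeq2 called 2.47%, 3.2%, 3.32%, 6.01%, 0.285%, 1.47% and 17.4%, then 0.657% and 20.2%, and 0.457%, 10.1% and 10.7%, in the order given. The cause of these changes was not tested. Leaving out 1 library gave 0 to 1 calls for gd6.5 against virgin, 0 to 2 for gd8.5 against virgin, 0 to 2 for trNK-T against trNK-V, 0 to 1 for IL-21 at 72 h, and 0 to 1 for its effect at 72 against 24 h and against 6 h. In the same fits 0 to 1161, 0 to 657, 87 to 1018, 515 to 2497, 115 to 1832 and 113 to 1809 of all genes were called. In fits without 1 library its group's lone sample is assumed to vary like the other groups. Over all genes, trNK-T against trNK-V gave 6.75% called, 5.49% by limma, 14.9% by DESeq2 and 21.2% with the filter at 10 RPKM.

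Same-numbered libraries deviated together weakly or not at all, with r from -0.102 to 0.197 over the experiments and 0.0319 to 0.128 in the subsets. This does not decide whether the numbers pair them, since noise of single libraries could hide a pairing. A replicate block changed no member's call, with 2 members called for trNK-T against trNK-V and 1 for IL-21 at 72 h, and moved the genes called between trNK-T and trNK-V from 968 to 895.

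In trNK-like cells, Il21r, Il2ra, Il2rb, Il2rg, Il7r, Il15ra and Il4ra were at 96.69, 46.78, 2105, 815.9, 28.25, 18.84 and 74.4 CPM with 200 to 2500 UMIs per cell (2039 cells). With no upper limit on genes they were at 33.21, 144.8, 2012, 663.8, 1.393, 13.39 and 34.09 CPM (5859 cells). At resolution 0.4 they were at 50.82, 78.44, 1735, 626.7, 6.705, 13.04 and 40.18 CPM (4969 cells). Bulk groups of 2 libraries and low counts of Il7r limit the comparisons.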
